A study of Homo sapiens with 24 samples.

Results

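The genes described here encode the 4 kinases that phosphorylate the translation factor eIF2alpha (EIF2AK1, EIF2AK2, EIF2AK3 and EIF2AK4), eIF2alpha itself (EIF2S1), the RNA-editing enzymes ADAR and ADARB1, and 2 further proteins that bind double-stranded RNA, PRKRA and DHX9. They were taken by name from a table of 60609 genes in TPM, a length-corrected share of each library, and all 9 were among the 16062 genes tested, which reached 1 TPM in 3 or more of the 24 libraries. The cells were A549, an established human lung adenocarcinoma line. They received a pool of siRNAs against BOP1, a factor of large ribosomal subunit assembly, or an siRNA against firefly luciferase (FLuc), which has no target in these cells, for 48 h. They were then mock-treated or given interferon beta (IFN) at 1000 units per mL for 8 or 12 h. This gave 8 groups of 3 libraries: FLuc or BOP1 siRNA, mock or IFN, 8 or 12 h. All 8 groups had been transfected, so no group shows the genes in cells without siRNA. Nothing in the labels says whether the 3 libraries of a group came from separate cultures on separate days, so the p-values measure the spread between these libraries only. The column headers number the libraries 1, 2 and 4, and those numbers are used below.

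PKR, the product of EIF2AK2, is an interferon-induced kinase that is activated when it binds double-stranded RNA, a product of many viral infections. Active PKR phosphorylates eIF2alpha, which lowers the supply of initiator tRNA to ribosomes and reduces translation of most messages. The other 3 kinases act on the same site of eIF2alpha after other stresses: EIF2AK1 (HRI) after heme shortage and mitochondrial stress, EIF2AK3 (PERK) after misfolding of proteins in the endoplasmic reticulum, and EIF2AK4 (GCN2) after amino acid shortage. Their shared output is called the integrated stress response, in which ATF4 and its target genes are expressed. ADAR converts adenosine to inosine in double-stranded RNA, which keeps the cell's own paired RNA from activating PKR and the sensor MDA5. PRKRA (PACT) binds and activates PKR, and DHX9 is a helicase that unwinds paired RNA.

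The table gives TPM and no read counts, so the sequencing depth is unknown. A gene can therefore be compared with another gene and across libraries, but a change in total RNA per cell cannot be seen. In bulk RNA a change in the number of cells that express a gene and a change per cell cannot be told apart. Each library held 13844 to 14509 genes at 1 TPM or more, and mitochondrially encoded genes took 6.86 to 15.9% of its TPM. The lowest share, 6.86%, was that of the FLuc siRNA mock library numbered 4 at 12 h, and the next lowest was 10.9%. The epithelial and metabolic genes that mark A549 were high, for example KRT8 at 2086 to 3803 TPM and ALDH1A1 at 2669 to 4365 TPM, although EPCAM was at 1.92 to 5.48 TPM. CDKN2A, which is deleted in A549, was at 0 in all 24 libraries. Of 9 markers of leukocytes, fibroblasts and endothelium, CD3E was at 0 and PTPRC at 0.021 TPM or less. The fibroblast marker COL1A1 was at 5.37 to 19.3 TPM. The sum of the 9 markers was 50.8 to 72.4 TPM in mock and 178 to 421 TPM in IFN libraries, of which CD68 alone gave 38.5 to 57.5 and 170.2 to 402 TPM. BOP1 was at 32.4 to 78.8 TPM with FLuc siRNA and 10.04 to 19.5 TPM with BOP1 siRNA, and it was lower by 1.69 to 2.0 on the log2 scale in the 4 comparisons of the siRNAs.

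The promoter of EIF2AK2 is shown because it carries, at the start site, a copy of the interferon-stimulated response element (ISRE), a DNA motif found in promoters of many interferon-induced genes. The RefSeq window of 300 bases (GRCh38.p14, chr2:37156931-37157230, minus strand) is printed 5′ to 3′, and the capitals mark the only match to a long form of the motif (GAAA, any 2 bases, then GAAACT), at chr2:37156975-37156986.
EIF2AK2: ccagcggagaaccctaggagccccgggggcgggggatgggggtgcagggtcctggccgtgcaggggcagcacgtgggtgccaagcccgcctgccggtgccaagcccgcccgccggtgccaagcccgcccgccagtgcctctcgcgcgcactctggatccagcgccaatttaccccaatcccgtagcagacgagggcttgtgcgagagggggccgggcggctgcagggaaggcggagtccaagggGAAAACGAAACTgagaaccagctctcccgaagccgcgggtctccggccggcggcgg
The core motif (GAAA, any 2 bases, then GAAA), searched on both strands, was present in 3.57% of 35116 such windows over the genome, and the long form, which contains the core, in 0.273%. Windows were listed for 8 of the 9 genes, with 15 windows, and only that of EIF2AK2 held the core or the long form. The 3 windows of ADAR held neither, which says only that these letters are not in those windows. GENCODE release 29 gives ADAR 12 protein-coding transcripts, of which 6 start inside those windows and 6 outside. For comparison, 10 of 18 other genes that sense double-stranded RNA or relay its signal had a window, and 4 of the 10 held the core. The long form was in 1 of the 10, DDX60. The match nearest the start site is shown for each of those 4 and for EIF2AK2, with the core in capitals and 15 bases on either side, in the order EIF2AK2 (chr2:37156962-37157001, minus strand), IFIH1 (chr2:162318681-162318720, minus), OAS3 (chr12:112938447-112938486, plus), TLR3 (chr4:186069137-186069176, minus) and DDX60 (chr4:168318781-168318820, minus).
EIF2AK2: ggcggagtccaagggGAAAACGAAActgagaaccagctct
IFIH1: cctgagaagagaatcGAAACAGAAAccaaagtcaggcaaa
OAS3: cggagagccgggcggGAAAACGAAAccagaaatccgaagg
TLR3: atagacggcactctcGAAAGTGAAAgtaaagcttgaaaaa
DDX60: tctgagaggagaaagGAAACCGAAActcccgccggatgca
EIF2AK2 and OAS3 share the same 10 letters in the core. A match of letters is a description and not a measured binding site.

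Under IFN, EIF2AK2 and ADAR rose in all 4 comparisons and the 7 other genes moved little. EIF2AK2 (ENSG00000055332.18, GRCh38 chromosome 2, 37099210 to 37157065, minus strand) gave the larger change. In FLuc siRNA cells at 8 h, EIF2AK2 was at 26.4, 29.8 and 28.3 TPM in the mock libraries numbered 1, 2 and 4 and at 214, 202 and 181 TPM in the IFN libraries. At 12 h it was at 24.2, 25.0 and 35.2 TPM in mock and 164, 156 and 187 TPM in IFN libraries. The mock and IFN values did not overlap at either time, and the mock library numbered 4 at 12 h was the highest of all mock libraries. In BOP1 siRNA cells, EIF2AK2 was at 23.4, 28.0 and 26.6 TPM in mock and 199, 187 and 164 TPM in IFN libraries at 8 h. At 12 h it was at 24.2, 23.0 and 30.04 TPM in mock and 141, 164 and 179 TPM in IFN libraries. Again every IFN library was above every mock library. Groups separated upward in this way for 9.92, 11, 10.1 and 12.4% of all genes tested, in the order FLuc siRNA at 8 and 12 h and BOP1 siRNA at 8 and 12 h.

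Tests were made with limma on log2(TPM + 1), without the library number as a block unless stated. A gene was called when its Benjamini-Hochberg adjusted p over the 16062 genes was under 0.05. Differences below are on that log2 scale, which understates the change of genes near 1 TPM. EIF2AK2 rose by 2.78 with FLuc siRNA at 8 h (SE 0.13, n = 3 per group, 95% interval 2.50 to 3.06, adjusted p = 7.68e-13), a 6.86-fold change of TPM + 1. The rise was 2.56 with FLuc siRNA at 12 h, 2.77 with BOP1 siRNA at 8 h and 2.60 with BOP1 siRNA at 12 h, each with an SE of 0.13 and an adjusted p of 3.32e-12 or less. Among all genes tested these were the 123rd, 141st, 127th and 132nd highest differences. Paired by library number, the IFN to mock ratio of TPM lay between 5.31 and 8.51 with a median of 6.54 over 12 pairs, and it was above 1 in 12 of 12.

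Of the 9 genes, 2 were called higher and 0 lower with FLuc siRNA at 8 h, where 10.8% of all genes were called in either direction, 5.77% higher and 5.07% lower. With FLuc siRNA at 12 h, 2 were called higher and 1 lower, against 13.5% of all genes (7.06% higher, 6.43% lower). With BOP1 siRNA at 8 h, 2 were higher and 2 lower, against 15.1% of all genes (5.99% higher, 9.11% lower). With BOP1 siRNA at 12 h, 2 were higher and 0 lower, against 14.8% (7.17% higher, 7.58% lower). Of all genes called, 53.2, 52.4, 39.7 and 48.6% were higher in these comparisons, and 69.1, 63.1, 65.5 and 62.4% after median-of-ratios rescaling, which moves the median of all genes from −0.14 to −0.01 with BOP1 siRNA at 8 h. With the library number as a block, the share of all genes called was 21, 26.9, 29 and 27.9% in those comparisons, in the order given.

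**Figure D1:**
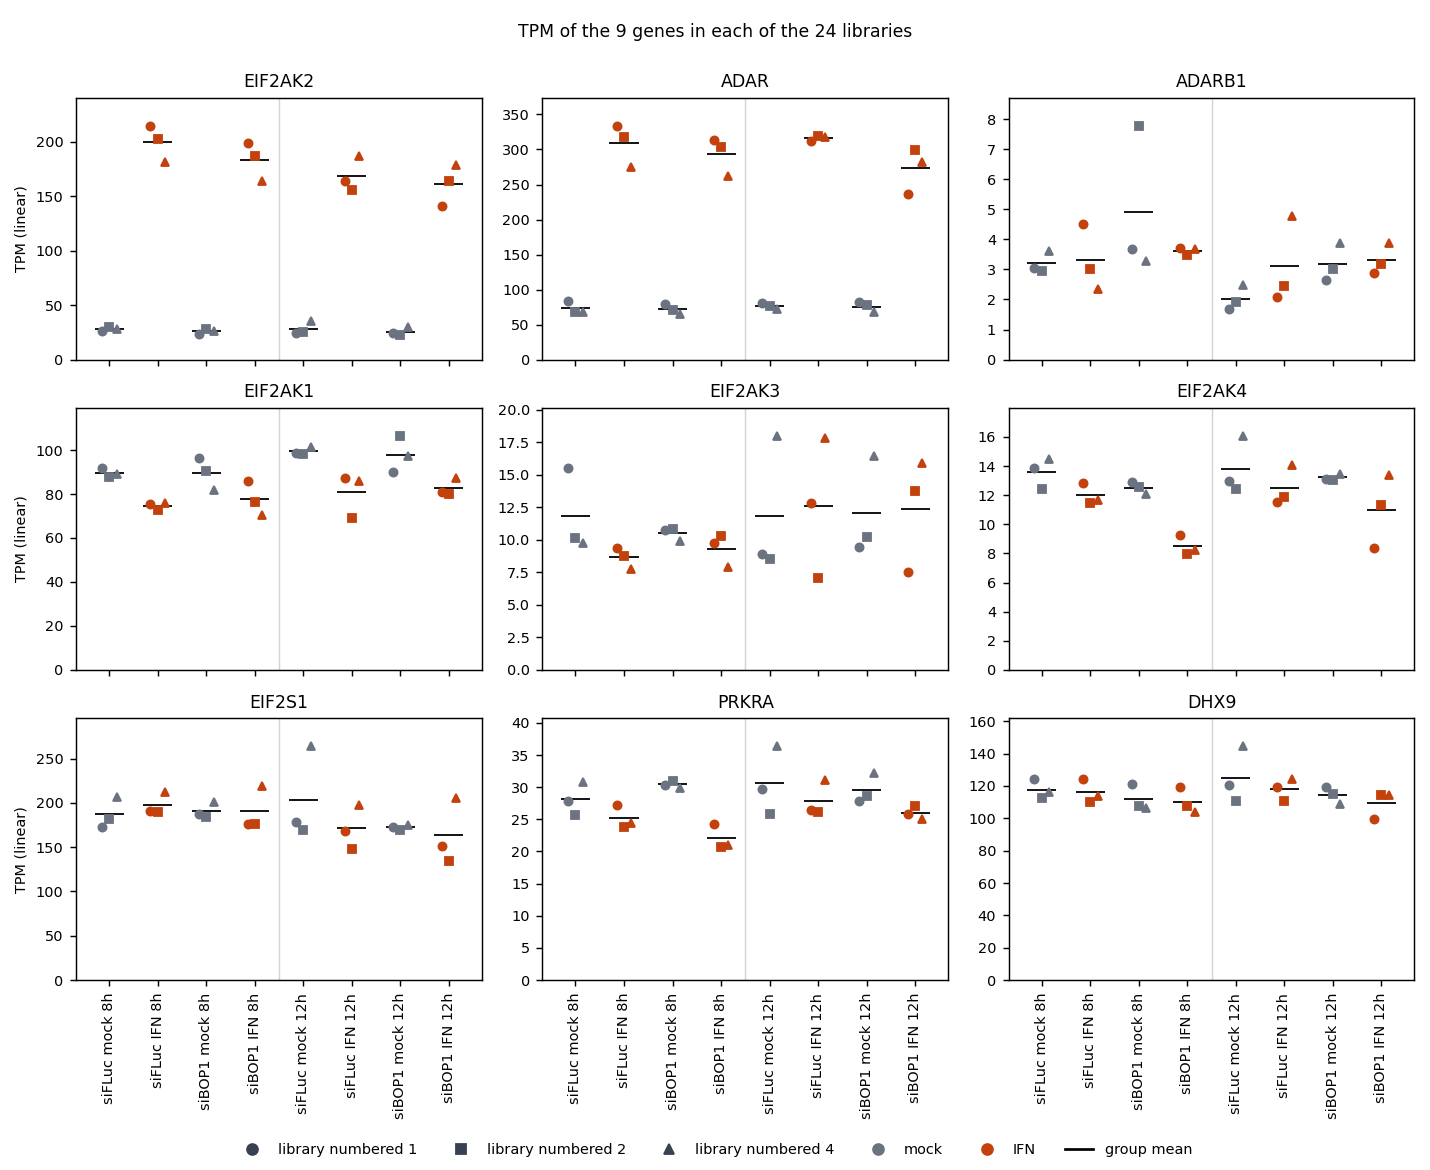
TPM of the 9 genes in the 24 libraries, 1 panel per gene, with the 8 groups on the horizontal axis and a separate vertical scale in each panel. Points are libraries, with a symbol for each library number, and bars are group means; EIF2AK2 and ADAR separate mock from IFN without overlap, and EIF2AK3 is at 15.9 to 17.95 TPM in the 4 libraries numbered 4 at 12 h.

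The other 3 kinase genes did not rise. EIF2AK1 (ENSG00000086232.13, chromosome 7, 6022244 to 6059230, minus strand), the most abundant of the 4 in mock cells, was slightly lower under IFN. With FLuc siRNA it was at 91.7, 87.6 and 89.1 TPM in mock and 75.5, 72.6 and 76.0 TPM in IFN libraries at 8 h. At 12 h it was at 98.7, 98.1 and 102 TPM in mock and 87.4, 68.9 and 86.1 TPM in IFN libraries. These pairs of groups did not overlap. With BOP1 siRNA the 8 h groups overlapped (96.5, 90.6 and 81.6 TPM in mock, 86.0, 76.4 and 70.3 TPM in IFN). The 12 h groups did not (89.9, 106 and 97.4 TPM in mock, 80.7, 80.2 and 87.1 TPM in IFN). The ratio of IFN to mock was below 1 in 12 of 12 pairs of equal number, between 0.70 and 0.90. Groups separated downward, as EIF2AK1 did in 3 comparisons, for 18.9, 15.1 and 19.2% of all genes in those comparisons. The difference was −0.30 with FLuc siRNA at 12 h (SE 0.09, adjusted p = 0.0352), the only one called. It was −0.26 (adjusted p = 0.0936) with FLuc siRNA at 8 h, −0.21 (0.154) with BOP1 siRNA at 8 h and −0.24 (0.0984) with BOP1 siRNA at 12 h. With the library number as a block, FLuc siRNA at 8 h (adjusted p = 0.0372) and BOP1 siRNA at 12 h (0.0424) were called as well. The call at 12 h with FLuc siRNA was lost without any 1 of the mock libraries (−0.31, −0.31 and −0.29, adjusted p = 0.0743, 0.0696 and 0.0788, without numbers 1, 2 and 4) or without the IFN library numbered 2 (−0.20, adjusted p = 0.231). It was also lost after rescaling by median-of-ratios factors (−0.25, adjusted p = 0.0699). The median difference over all genes was −0.06 to −0.14 in these 4 comparisons.

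EIF2AK4 (ENSG00000128829.12, chromosome 15, 39934146 to 40035591, plus strand), the GCN2 gene, fell under IFN with BOP1 siRNA at 8 h. It was at 12.9, 12.5 and 12.1 TPM in mock and 9.23, 7.97 and 8.25 TPM in IFN libraries, with no overlap and a difference of −0.51 (SE 0.13, adjusted p = 0.0116). Groups separated downward for 26.7% of all genes in that comparison. The call was lost without the BOP1 siRNA IFN library numbered 2 at 8 h (−0.47, adjusted p = 0.0556). With BOP1 siRNA at 12 h the values overlapped: 13.1, 13.1 and 13.5 TPM in mock against 8.37, 11.3 and 13.4 TPM in IFN libraries (−0.27, adjusted p = 0.205). Without the IFN library numbered 4, which was the one inside the mock range, that difference was −0.41 (adjusted p = 0.0464). With FLuc siRNA, EIF2AK4 was at 13.9, 12.5 and 14.5 TPM in mock and 12.9, 11.5 and 11.7 TPM in IFN libraries at 8 h. At 12 h it was at 12.996, 12.4 and 16.1 TPM in mock and 11.5, 11.9 and 14.1 TPM in IFN libraries. Neither difference was called (−0.16, adjusted p = 0.513, and −0.13, adjusted p = 0.587).

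EIF2AK3 (ENSG00000172071.14, chromosome 2, 88556741 to 88627576, minus strand), the PERK gene, was not called in any comparison, with differences of −0.38, 0.08, −0.16 and 0.02 (SE 0.30) for FLuc siRNA at 8 and 12 h and BOP1 siRNA at 8 and 12 h. With FLuc siRNA at 8 h the groups did not overlap, at 15.5, 10.2 and 9.73 TPM in mock and 9.38, 8.75 and 7.78 TPM in IFN libraries, as was so downward for 18.9% of all genes. They overlapped with BOP1 siRNA at 8 h, at 9.92 to 10.8 and 7.92 to 10.3 TPM. At 12 h with FLuc siRNA it was at 8.91, 8.48 and 17.95 TPM in mock and 12.8, 7.03 and 17.8 TPM in IFN libraries. With BOP1 siRNA at 12 h it was at 9.45, 10.2 and 16.5 TPM in mock and 7.55, 13.7 and 15.9 TPM in IFN libraries. In each of these groups the library numbered 4 was the highest.

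The make-up of the kinase messages changed with the rise of EIF2AK2. Summed over the 4 genes, TPM was 130.3 to 171 (median 144) in the 12 mock libraries and 238 to 312 (median 279) in the 12 IFN libraries. EIF2AK2 took 15.1 to 21.3% of that sum in mock and 59.3 to 68.7% in IFN libraries. EIF2AK1 took 59.5 to 69.7% in mock and 24.2 to 34.0% in IFN libraries, so the most abundant kinase message was EIF2AK1 in all 12 mock and EIF2AK2 in all 12 IFN libraries. EIF2AK3 and EIF2AK4 took 5.89 to 10.5% and 8.55 to 10.2% in mock and 2.81 to 5.85% and 2.83 to 4.88% in IFN libraries. These are shares of messages, not of kinase protein or activity.

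**Figure D2:**
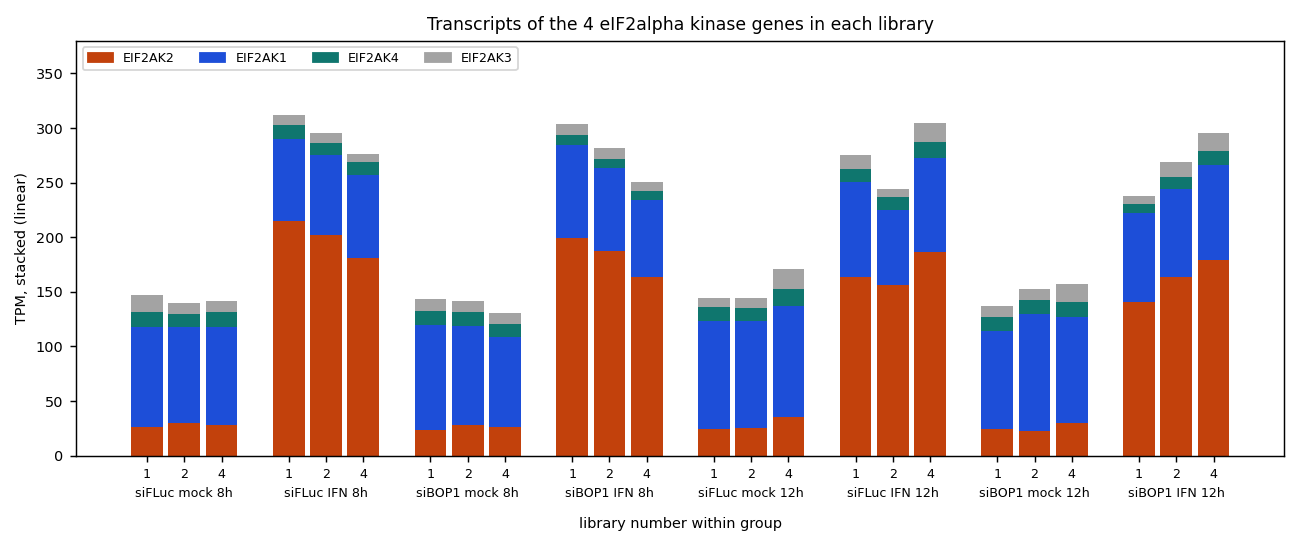
Stacked bars of TPM for EIF2AK1, EIF2AK2, EIF2AK3 and EIF2AK4 in each of the 24 libraries, ordered by group, with TPM from 0 on the vertical axis. The IFN bars reach 238 to 312 TPM against 130.3 to 171 TPM in mock, and the EIF2AK2 segment makes most of that difference.

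EIF2S1 (ENSG00000134001.13, chromosome 14, 67359997 to 67386516, plus strand), which encodes the substrate of the 4 kinases, was the most abundant of the 9 messages in mock cells, at 169 to 264 TPM (median 180.2). In IFN libraries it was at 134 to 219 TPM (median 183). No difference under IFN was called (0.08, −0.23, −0.01 and −0.10, SE 0.15, adjusted p 0.376 to 0.983, in the order above). The highest value, 264 TPM, was the FLuc siRNA mock library numbered 4 at 12 h, where the other 2 libraries of the group were at 178 and 169 TPM. With the libraries numbered 1 and 2 alone, EIF2S1 was lower under IFN with BOP1 siRNA at 12 h (−0.26, SE 0.07, adjusted p = 0.0201), where 23.9% of all genes were then called. The ratio of EIF2S1 to EIF2AK2 TPM was 5.82 to 8.00 in mock and 0.820 to 1.33 in IFN libraries. The message for the substrate was thus several times that for PKR in mock cells and about equal to it under IFN.

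Because eIF2alpha phosphorylation is not measured by RNA, 10 readout genes of the integrated stress response were read beside the kinases: ATF4 and 9 genes expressed with or after it. None was called in any IFN comparison by limma, with medians of −0.07, 0.17, −0.13 and 0.14. With the library number as a block, 1 was higher and 0 lower, 3 higher and 1 lower, 1 higher and 3 lower, and 3 higher and 2 lower, in the order FLuc siRNA 8 and 12 h, BOP1 siRNA 8 and 12 h, where 21, 26.9, 29 and 27.9% of all genes were called. The libraries numbered 4 at 12 h stood apart in 4 of these 10 genes, whether mock or IFN. The genes named for this were picked after their values were seen. DDIT3 (CHOP), a transcription factor of prolonged stress, was at 77.6 to 124 TPM in those 4 libraries and 6.98 to 18.7 TPM in the other 20. SESN2, a stress-induced inhibitor of mTORC1 signalling, was at 14.8 to 25.8 against 1.38 to 3.94 TPM. DDIT4, another mTORC1 inhibitor, was at 268 to 401 against 107 to 257 TPM, and CHAC1, a glutathione-degrading enzyme, at 4.14 to 34.9 against 0.906 to 3.82 TPM. These 4 of the 10 readouts were above all other libraries, and 6 overlapped with them. ATF4 itself overlapped, at 245 to 353 against 195 to 266 TPM. Of 13 genes for eIF2alpha phosphatases and regulators of the kinases, 2 stood apart, the subunits that direct phosphatase PP1 to eIF2alpha. PPP1R15A (GADD34) was at 66.1 to 496 against 16.2 to 38.9 TPM, and PPP1R15B (CReP) at 44.3 to 63.5 against 18.2 to 27.9 TPM. Among the 9 genes only EIF2AK3 was above all others there, at 15.9 to 17.95 against 7.03 to 15.5 TPM. How many of all genes tested stood apart in these libraries was not counted. These counts therefore have no background and are not shown to be particular to stress genes. EIF2AK2 was the highest of its group in the libraries numbered 4 at 12 h in all 4 groups.

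**Figure D3:**
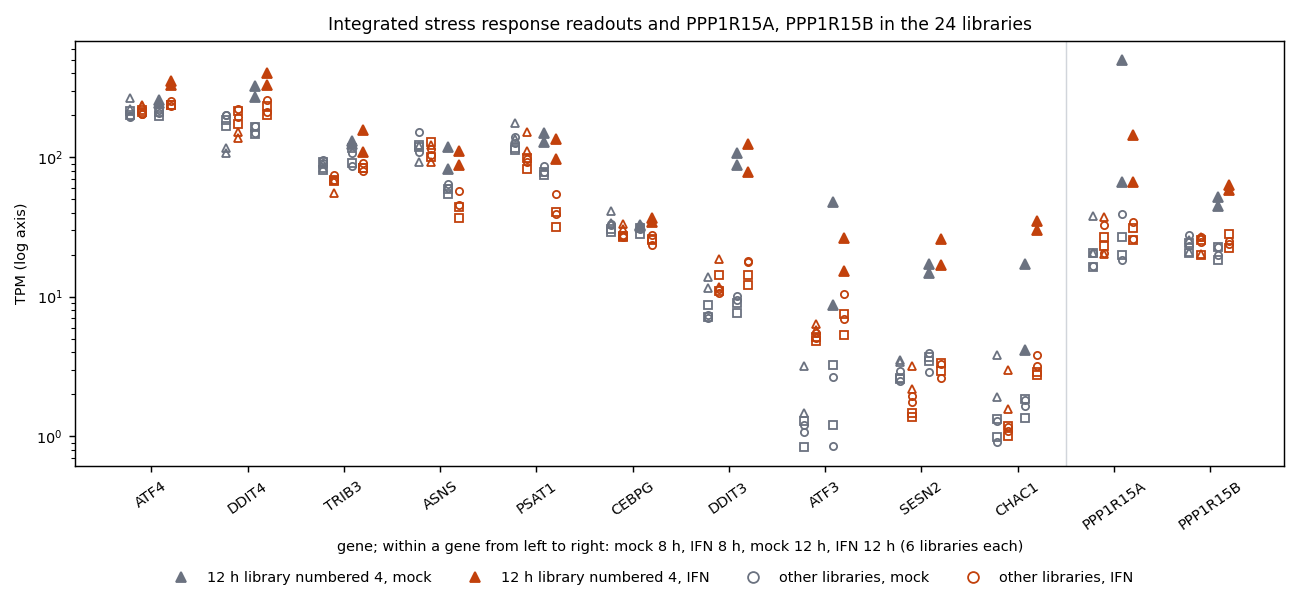
TPM, on a log axis, of 10 readout genes of the integrated stress response and of PPP1R15A and PPP1R15B in the 24 libraries. Filled triangles are the 4 libraries numbered 4 at 12 h and open symbols the other 20, grey for mock and orange for IFN. DDIT3, SESN2, CHAC1, DDIT4, PPP1R15A and PPP1R15B lie above all other libraries in the filled triangles, and the other readouts overlap. These genes were picked after their values were seen, and the share of all genes that lie so was not counted.

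When only the libraries numbered 1 and 2 were fitted, the readouts separated in both directions under IFN. With FLuc siRNA, 1 was higher and 1 lower at 8 h, and 5 were higher and 1 lower at 12 h, where 16 and 21.2% of all genes were called. With BOP1 siRNA, 2 were higher and 2 lower at 8 h, and 5 were higher and 3 lower at 12 h, where 21.8 and 23.9% of all genes were called. ATF3, a stress-induced repressor, was higher in all 4 (1.61, 1.31, 1.49 and 1.80, adjusted p of 0.000349 or less). With 3 libraries per group its differences were 1.30, 0.59, 1.52 and 1.45 and none was called (SE 0.73). PSAT1, an enzyme of serine synthesis and an ATF4 target, was lower at 12 h with either siRNA (−0.79, adjusted p = 0.00183, and −1.09, adjusted p = 0.000147). DDIT3 was higher by 0.68 (adjusted p = 0.0221) and 0.73 (0.0136) at 12 h. The readouts therefore did not all move in 1 direction, although at 12 h more were called higher than lower with either siRNA. Over all genes, 9.85% were called higher and 11.3% lower at 12 h with FLuc siRNA, and 10.2% and 13.7% with BOP1 siRNA. The part that the libraries numbered 4 play in the counts of calls was not tested beyond this refit.

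ADAR (ENSG00000160710.17, chromosome 1, 154582057 to 154628013, minus strand) was the other gene that rose. With FLuc siRNA at 8 h it was at 83.6, 68.2 and 67.6 TPM in mock and 334, 318 and 275 TPM in IFN libraries. At 12 h it was at 80.8, 76.3 and 72.3 TPM in mock and 312, 319 and 317 TPM in IFN libraries. The 3 IFN libraries at 12 h were the closest of the 4 IFN groups (316 ± 3.26 TPM, SD, n = 3). With BOP1 siRNA at 8 h it was at 80.0, 70.2 and 65.6 TPM in mock and 314, 303 and 262 TPM in IFN libraries. At 12 h it was at 81.6, 77.3 and 68.1 TPM in mock and 236, 299.9 and 282 TPM in IFN libraries. Mock and IFN never overlapped. ADAR rose by 2.07 (95% interval 1.84 to 2.30) and 2.03 (1.81 to 2.26) with FLuc siRNA at 8 and 12 h, and by 2.01 (1.78 to 2.24) and 1.83 (1.61 to 2.06) with BOP1 siRNA. The SE was 0.11 and the adjusted p 3.07e-11 or less in each. The rise was 3.57- to 4.19-fold on the TPM + 1 scale and above 1 in 12 of 12 pairs, with pair ratios of 2.90 to 4.67. These TPM are per gene: the interferon-inducible p150 and the constitutive p110 forms of ADAR cannot be separated in them.

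ADARB1 (ENSG00000197381.16, chromosome 21, 45073853 to 45226560, plus strand), the ADAR2 gene, was low and variable, at 1.68 to 7.77 TPM in mock and 2.10 to 4.78 TPM in IFN libraries. The highest value was the BOP1 siRNA mock library numbered 2 at 8 h, where the other 2 libraries were at 3.67 and 3.29 TPM. No IFN difference was called (0.01, 0.40, −0.28 and 0.05, SE 0.25). The ratio of ADAR to ADARB1 TPM was 9.03 to 48.0 in mock and 66.4 to 149 in IFN libraries. Of 6 other members or relatives of the adenosine deaminases that act on RNA, 3 passed the filter. ADARB2 and ADAD1 were at 0 in every library. ADAT1, a tRNA deaminase, was lower with BOP1 siRNA at 8 h (−0.35), a call that was lost without any 1 of the 6 libraries of that comparison.

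PRKRA (ENSG00000180228.13, chromosome 2, 178431414 to 178451512, minus strand), the activator of PKR, fell under IFN with BOP1 siRNA at 8 h. It was at 30.3, 31.0 and 29.9 TPM in mock and 24.3, 20.7 and 21.1 TPM in IFN libraries. These groups did not overlap, as was so downward for 26.7% of all genes. The difference was −0.45 (SE 0.11, adjusted p = 0.00851), and it was called in every leave-one-out fit and every other setting run, between −0.52 and −0.30. With BOP1 siRNA at 12 h it was at 27.8, 28.7 and 32.2 TPM in mock and 25.8, 27.0 and 25.1 TPM in IFN libraries. These also did not overlap, as was so downward for 19.2% of all genes, but the difference was not called (−0.18, adjusted p = 0.333). With FLuc siRNA the groups overlapped at both times, at 25.7 to 30.8 and 25.9 to 36.3 TPM in mock and 23.8 to 27.3 and 26.1 to 31.1 TPM in IFN libraries (−0.15, adjusted p = 0.465, and −0.12, adjusted p = 0.543). PRKRA and EIF2AK2 were at like levels in mock cells, with a TPM ratio of 0.863 to 1.30. Under IFN the ratio was 0.111 to 0.183.

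DHX9 (ENSG00000135829.17, chromosome 1, 182839369 to 182887751, plus strand) was the steadiest of the 9. It was at 106 to 144 TPM in mock and 99.7 to 124 TPM in IFN libraries, and its 144 TPM was again the FLuc siRNA mock library numbered 4 at 12 h. The IFN differences were −0.02, −0.08, −0.02 and −0.07 (SE 0.09, adjusted p 0.661 to 0.936). Its sign turned with scaling: after median-of-ratios rescaling it was 0.07, 0.14 and 0.01 in the FLuc siRNA 8 h and the BOP1 siRNA 8 h and 12 h comparisons.

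**Figure D4:**
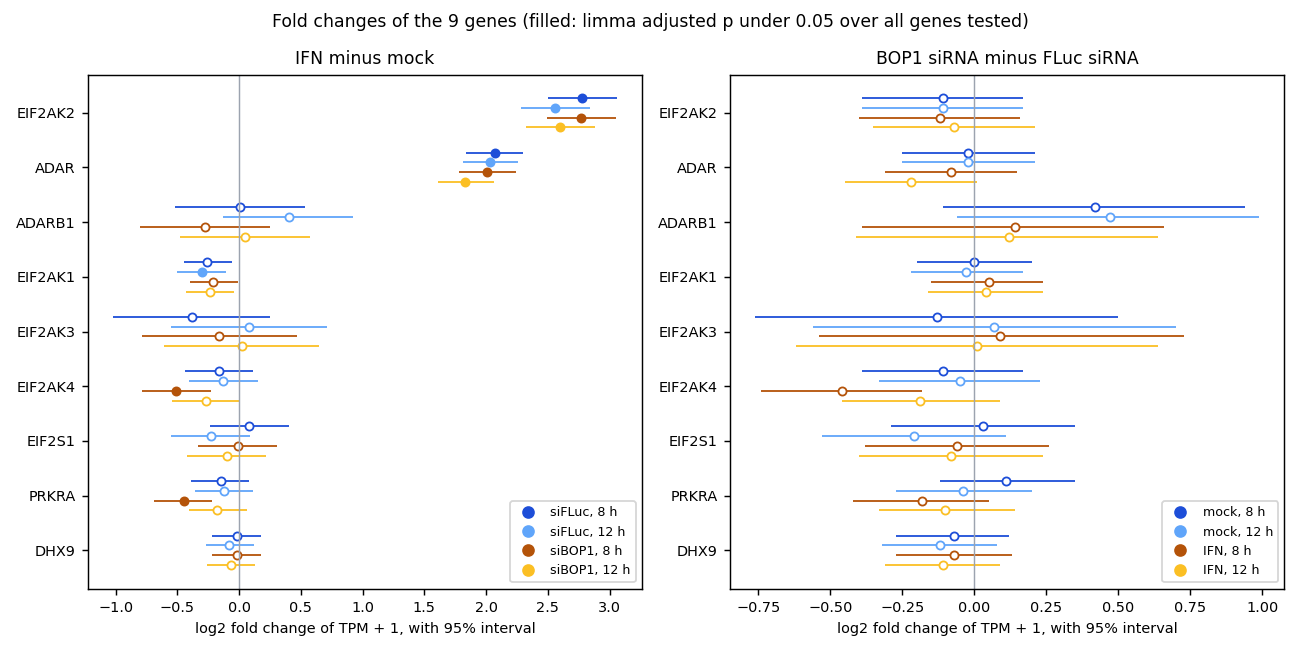
Difference in log2(TPM + 1) with its 95% interval for the 9 genes, IFN minus mock on the left and BOP1 minus FLuc siRNA on the right, 4 comparisons each; filled points had an adjusted p under 0.05. EIF2AK2 at 2.56 to 2.78 and ADAR at 1.83 to 2.07 stand alone on the left, and on the right no point is filled.

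By median TPM the order in mock libraries was EIF2S1 (180.2), DHX9 (116), EIF2AK1 (94.1), ADAR (74.3), PRKRA (29.8), EIF2AK2 (26.5), EIF2AK4 (13.02), EIF2AK3 (10.2) and ADARB1 (3.03). The ranges of neighbours overlapped in mock for ADAR and EIF2AK1 (65.6 to 83.6 and 81.6 to 106 TPM), PRKRA and EIF2AK2 (25.7 to 36.3 and 23.0 to 35.2 TPM), and EIF2AK4 and EIF2AK3 (12.1 to 16.1 and 8.48 to 17.95 TPM). In IFN libraries ADAR (308) led, followed by EIF2S1 (183), EIF2AK2 (180.0), DHX9 (114), EIF2AK1 (78.3), PRKRA (25.4), EIF2AK4 (11.5), EIF2AK3 (9.58) and ADARB1 (3.33). EIF2S1 and EIF2AK2 were within each other's spread there, at 134 to 219 and 141 to 214 TPM.

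The BOP1 siRNA was compared with the FLuc siRNA at each treatment and time. None of the 9 genes was called by limma in the 4 comparisons, in which 2.16 and 1.6% of all genes were called in mock cells at 8 and 12 h and 2 and 0.66% in IFN cells. Of the calls in mock cells, 69.2 and 56.4% were higher at 8 and 12 h, and 57.3 (median-of-ratios rescaling) and 69.1% (rescaling without mitochondrial genes) under the scalings that moved this share. At an unadjusted p under 0.05 there were 0, 0, 1 and 0 of the 9. With the library number as a block 8.49, 7.66, 8.81 and 3.77% of all genes were called, and 1 of the 9, EIF2AK4 with IFN at 8 h. EIF2AK2 differed by −0.11, −0.11, −0.12 and −0.07, with intervals that together ran from −0.40 to 0.21. ADAR differed by −0.02 in mock at either time, −0.08 with IFN at 8 h and −0.22 with IFN at 12 h (95% interval −0.45 to 0.01, adjusted p = 0.592). In that last comparison its groups did not overlap, at 312 to 319 TPM with FLuc and 236 to 299.9 TPM with BOP1 siRNA, which was so in the downward direction for 5.61% of all genes. EIF2AK4 with IFN at 8 h was at 12.9, 11.5 and 11.7 TPM with FLuc and 9.23, 7.97 and 8.25 TPM with BOP1 siRNA. That difference was −0.46 (95% interval −0.74 to −0.18, adjusted p = 0.0842). It was called with the block (adjusted p = 0.00846) and after median-of-ratios (0.0235) or quantile (0.0200) scaling. Groups separated downward for 9.92% of all genes in that comparison, where 1.25% were called higher and 0.76% lower. ADARB1 was higher without overlap in mock at 12 h, at 2.64, 3.02 and 3.88 TPM against 1.68, 1.91 and 2.47 TPM, which was so for 10.4% of all genes. Its difference was 0.47 (95% interval −0.06 to 0.99, adjusted p = 0.464). In the comparisons of the siRNAs these 3 were the only cases among the 9 genes in which the groups did not overlap. In mock at 8 h none of the 9 separated, where 12.4% of all genes did so upward and 7.7% downward, and none separated upward with IFN, where 9.84% at 8 h and 7.43% at 12 h did.

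Whether the IFN effect itself differed between the siRNAs was tested with an interaction term. No gene was called at either time (0% of all genes). Of the 16062 genes, 353 at 8 h and 259 at 12 h had an unadjusted p under 0.05, a share below 0.05 at either time. The difference of the EIF2AK2 response was −0.01 (95% interval −0.40 to 0.39) at 8 h and 0.04 (−0.35 to 0.44) at 12 h. For ADAR it was −0.05 (−0.38 to 0.27) and −0.20 (−0.52 to 0.12). The calls of EIF2AK4 and PRKRA with BOP1 siRNA at 8 h were not shown to differ from FLuc siRNA, with differences of −0.35 and −0.30 in the IFN effect and a limma adjusted p of 1 for each.

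Between 8 and 12 h no gene of the 9 was called by limma, with 0.131, 3.53, 0.23 and 2.96% of all genes called in FLuc mock, FLuc IFN, BOP1 mock and BOP1 IFN cells. By unadjusted p under 0.05 there were 0, 0, 0 and 1 of the 9. EIF2AK2 differed by −0.02 and −0.02 in mock and by −0.24 (adjusted p = 0.336) and −0.19 in IFN cells with FLuc and BOP1 siRNA. With the libraries numbered 1 and 2 alone, the EIF2AK2 difference in FLuc siRNA IFN cells was −0.38 (adjusted p = 0.0476). In BOP1 siRNA IFN cells EIF2S1 was then lower by 0.31 (adjusted p = 0.0308). The change of the IFN effect from 8 to 12 h was −0.22 and −0.17 for EIF2AK2 and −0.03 and −0.18 for ADAR, with none of the 9 called and 0.00623 and 0% of all genes called.

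The ratio of ADAR to EIF2AK2 TPM was 2.05 to 3.42 (median 2.78) in mock and 1.52 to 2.04 (median 1.61) in IFN libraries. Mock and IFN libraries form separate sets, so the relation was computed within each, over 12 libraries of 4 groups. Libraries of equal number deviated together and may not be independent, so the correlations are descriptions and carry no p. In mock, Pearson's r of log2(TPM + 1) was −0.606 and Spearman's rho −0.636. Without the 2 libraries farthest from the median of EIF2AK2, r was −0.777. Within the 6 mock libraries of 8 h and of 12 h it was −0.643 and −0.749, and with the libraries numbered 1 and 2 alone −0.728 (n = 8). In all 4 mock groups ADAR was highest in the library numbered 1 and lowest in that numbered 4. At 12 h EIF2AK2 was highest in the library numbered 4 of both mock groups. In IFN libraries r was 0.666 and rho 0.503. It was 0.254 without the 2 farthest libraries and 0.715 with the libraries numbered 1 and 2 alone (n = 8). By time r was 0.974 at 8 h and 0.616 at 12 h (n = 6 each).

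**Figure D5:**
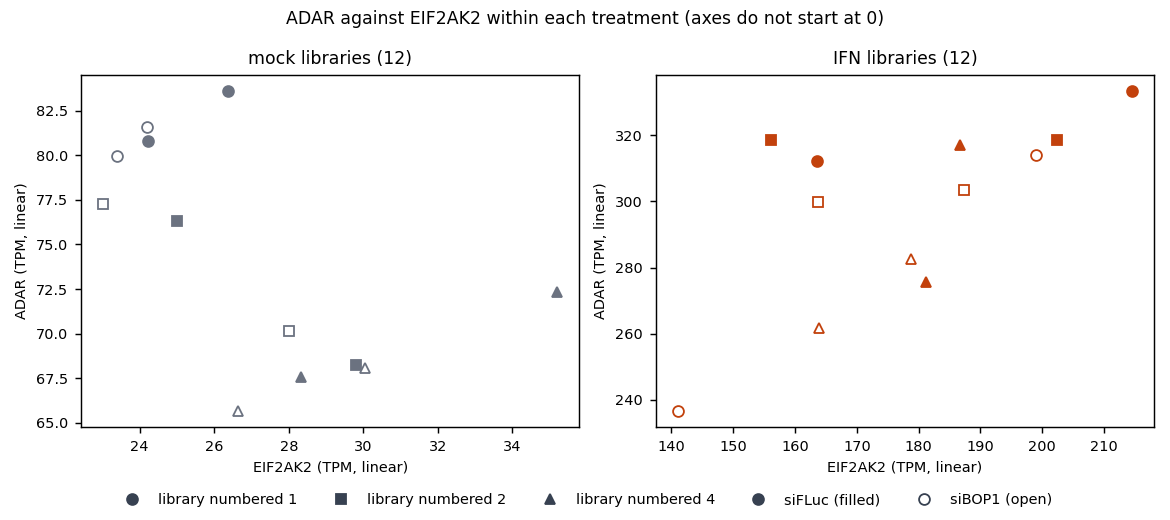
ADAR TPM against EIF2AK2 TPM in the 12 mock libraries (left) and the 12 IFN libraries (right), with symbols for library number, filled for FLuc and open for BOP1 siRNA; the axes do not start at 0. In mock, libraries with more EIF2AK2 had less ADAR (r of −0.606), and in IFN libraries the slope was upward (r of 0.666).

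The genes with the pattern most like EIF2AK2, by Pearson's r of log2(TPM + 1) over the 24 libraries among 10598 genes with a mean of at least 5 TPM, were USP18 (r 0.995), RIGI (0.995) and TRIM5 (0.994). Within the 12 mock and the 12 IFN libraries their r was 0.587 and 0.647, 0.664 and 0.650, and 0.421 and 0.853. For ADAR they were TRIM14 (0.996), IFI44L (0.994) and SP100 (0.994), with 0.727 and 0.749, 0.563 and 0.510, and 0.354 and 0.649 within mock and IFN. The values over 24 libraries hold the step between mock and IFN, so many induced genes lie close to these.

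The list of 18 other sensors and adaptors of double-stranded RNA moved with EIF2AK2 and ADAR. Of 17 tested, 15 were called higher and 0 lower in each of the 4 IFN comparisons. Over all genes 5.77, 7.06, 5.99 and 7.17% were called higher, in the order FLuc siRNA 8 and 12 h, BOP1 siRNA 8 and 12 h. The medians of the 17 were 3.5, 3.49, 3.5 and 3.45 against −0.09, −0.06, −0.14 and −0.08 over all genes. With the library number as a block 15 were higher in each and 1, 0, 2 and 0 lower. The share of all genes called was then 21, 26.9, 29 and 27.9%. OAS2, which makes the 2-5A second messenger that activates RNase L, went from 0.144 ± 0.104 to 312 ± 23.5 TPM (SD, n = 3) with FLuc siRNA at 8 h and rose by 8.10 to 8.21 in the 4 comparisons. OASL rose by 6.77 to 7.13, IFIH1, the MDA5 gene, by 5.51 to 5.96, and RIGI by 5.20 to 5.84. RIGI went from 5.77 ± 0.757 to 339.7 ± 26.2 TPM with FLuc siRNA at 8 h, above the 199 ± 16.9 TPM of EIF2AK2 in the same IFN libraries. The rises of EIF2AK2 and ADAR were smaller than the list's median, from mock levels of 28.2 ± 1.73 and 73.2 ± 9.09 TPM. MAVS, the mitochondrial adaptor of RIGI and IFIH1, differed by −0.36 to 0.09 and RNF135 by −0.26 to 0.02, and neither was called without the block. No gene of the list was called without the block in the 4 comparisons of the siRNAs. With the block 1 was lower in mock at 8 h, 1 lower in mock at 12 h and 1 higher with IFN at 8 h. The share of all genes called was then 8.49, 7.66 and 8.81%.

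Of 20 other genes listed for double-stranded RNA binding, not all of which hold the binding domain itself, 16 were tested. With FLuc siRNA at 8 h 1 rose and 1 fell, and in the 3 other IFN comparisons 2 rose and 2 fell. Those counts stand beside 10.8, 13.5, 15.1 and 14.8% of all genes called. With the library number as a block the counts were 2 and 5, 3 and 6, 2 and 6, and 2 and 4, where 21, 26.9, 29 and 27.9% of all genes were called. STAU1, a factor of RNA transport and decay, rose by 0.44, 0.54, 0.45 and 0.51, for example from 57.0 ± 3.67 to 78.0 ± 7.78 TPM with FLuc siRNA at 8 h. Its paralog STAU2 fell by 0.48, 0.48, 0.75 and 0.61, from 25.5 ± 2.57 to 18.05 ± 2.63 TPM in the same libraries. The pair thus moved in opposite directions. STAU1 was called in every fit run. The STAU2 calls with BOP1 siRNA were too, while with FLuc siRNA they were lost without 5 of 6 single libraries at 8 h (all but the IFN library numbered 2) and 4 of 6 at 12 h (the mock libraries numbered 2 or 4 and the IFN libraries numbered 1 or 2). They were also lost in 6 and 4 of 11 other settings. With BOP1 siRNA, NKRF fell by 0.66, 0.59 and 0.64 in mock at 8 and 12 h and IFN at 8 h, and differed by −0.51 (adjusted p = 0.111; 0.0374 with the block) with IFN at 12 h. Its calls were lost without any 1 of the 6 libraries in mock at 12 h. In mock at 8 h they were lost without the BOP1 siRNA library numbered 2 or 4 or the FLuc siRNA library numbered 1 or 4, and with IFN at 8 h without the libraries numbered 2 or 4 of either siRNA. All 3 calls were lost with only the groups compared and with the libraries numbered 1 and 2 alone. In those 3 comparisons 0.666, 0.697 and 0.76% of all genes were called lower, in the order mock at 8 and 12 h and IFN at 8 h.

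Of 15 other DEAH and DExH box helicases, DHX40 fell with BOP1 siRNA in all 4 comparisons, by 0.89, 0.87, 0.90 and 0.58. It went from 43.4 ± 0.726 to 23.0 ± 1.83 TPM in mock at 8 h. Over all genes 0.666, 0.697, 0.76 and 0.268% were called lower, in the order mock at 8 and 12 h and IFN at 8 and 12 h. The call with IFN at 12 h was lost without the BOP1 or the FLuc siRNA library numbered 1 or 4 and in 3 of 11 other settings, with an adjusted p of up to 0.447. That with IFN at 8 h was lost with only the groups compared (adjusted p = 0.0831). Under IFN the helicase counts were 0 higher and 0 lower, 0 and 1, 1 and 2, and 0 and 0, where 10.8, 13.5, 15.1 and 14.8% of all genes were called. With the library number as a block they were 1 and 1, 1 and 2, 1 and 4, and 0 and 1. The share of all genes called was then 21, 26.9, 29 and 27.9%. Of 11 subunits and partners of eIF2 and its exchange factor eIF2B, 0 rose and 2 fell in each of the 12 h comparisons without the block. At 8 h 0 were called. With the block 0 rose and 2 fell, 1 and 4, 0 and 3, and 1 and 4, in the order FLuc siRNA 8 and 12 h, BOP1 siRNA 8 and 12 h. The shares of all genes without and with the block are those given for the helicases. EIF2D, a noncanonical initiation factor, was called lower without the block at 12 h, at −0.35 with FLuc and −0.34 with BOP1 siRNA. Neither call held after median-of-ratios rescaling, and that with BOP1 siRNA was lost without the mock library numbered 1 (adjusted p = 0.0533). Of the 13 phosphatase subunits and kinase regulators, HSPA5, the chaperone that binds EIF2AK3 in unstressed cells, rose at 12 h with either siRNA (0.56 and 0.51). Without the block 1 other gene fell in each, and none was called at 8 h. With the block 1 rose and 2 fell, 3 and 3, 0 and 3, and 2 and 4, in the order above and beside the same shares of all genes. The HSPA5 calls were lost without the mock library numbered 1 or 2 or the IFN library numbered 4 of either siRNA, and with BOP1 siRNA also without the IFN library numbered 2. PPP1CC, a PP1 catalytic subunit, was higher with BOP1 siRNA in mock at 8 h (0.70, adjusted p = 0.0183), and differed by 0.60, 0.54 and 0.36 in mock at 12 h and IFN at 8 and 12 h, not called. That call was lost without the BOP1 siRNA library numbered 1 or 4 or the FLuc siRNA library numbered 2 or 4. In mock at 8 h 1.49% of all genes were called higher. With the block the 2 differences of 0.60 and 0.54 were called (adjusted p = 0.00216 and 0.00387), where 7.66 and 8.81% of all genes were called. Of 7 interferon genes only IFNE passed the filter, and IFNB1 was at 0.294 TPM or less.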

How the data were processed

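RNA-seq of total RNA from 24 A549 samples was prepared with the Illumina Stranded mRNA kit, per the labels' protocols. The authors deposited TPM per gene in a single table with 24 columns that each sum to 1000000. Aligner, quantifier, genome build and annotation are not given in the sources used here. No read counts were used, so depth is unknown. Of 60609 Ensembl IDs, 60340 had a symbol. Positions came from GENCODE release 29, which held 58502 of the IDs, 41779 with the same version. Promoters came from RefSeq (GRCh38.p14). Column headers number the libraries 1, 2 and 4 and the labels 1 to 3, so the 8 columns numbered 4 were assigned to a group only.

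limma 3.58.1 in R 4.3.3 was fitted to log2(TPM + 1) of the 16062 genes that reached 1 TPM in 3 or more libraries, with a mean per group over 24 libraries (16 residual degrees of freedom), a variance trend and two-sided tests. Adjustment was by Benjamini-Hochberg within each of 16 comparisons, with a threshold of 0.05. The fit was checked on simulated data. The main fit has no block. Deviations from the group mean went together in libraries of equal number (r 0.115 to 0.508 in 24 of 24 library pairs within a time). A fit with the number as a block was therefore run beside it. For the differences of number 2 from number 1, the correlation was −0.012 to 0.156, so pairing was little seen without the libraries numbered 4. The block is given where it changes a call of the 9 genes, and for the lists in part. Alternatives were the pseudocount, the filter, 3 scalings, no trend, only the groups compared, the block, libraries 1 and 2 alone, and each library left out. Named genes were all 9 genes, at most 4 per list called in all IFN comparisons and at most 3 per list called with BOP1 siRNA, plus 3 genes most like EIF2AK2 and ADAR. Other names in lists of few calls or beside the libraries numbered 4 were chosen after their values were seen. The genes and lists were chosen with earlier results of these data known.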

Additional observations from a re-analysis of the deposited data

How the results depend on the processing

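The differences of the 9 genes in the comparisons of IFN and of siRNA, those of EIF2AK2 and ADAR over time and in the interactions, the interactions of EIF2AK4 and PRKRA at 8 h, and the counts of calls were recomputed with a pseudocount of 0.1, with no filter or a mean of at least 5 TPM, with 3 other scalings, without the variance trend, with only the groups compared in the fit, with the replicate block, with the libraries numbered 1 and 2 alone (with and without the block), and without each library in turn. ADARB1 did not reach a mean of 5 TPM and has no value under that filter, and ratios and shares of TPM were not recomputed. The rise of EIF2AK2 under IFN was called in all of these fits, at 2.56 to 2.93 over the settings and 2.46 to 2.85 without single libraries, and so was that of ADAR, at 1.73 to 2.17 and 1.76 to 2.17. The replicate block sits within a time, so no paired value exists for 12 h against 8 h. Sequencing depth is unknown, so no counting error could be given.

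The number of the 9 genes called moved in 7 of the 12 comparisons of 2 groups. Through EIF2AK1 it was 3 in place of 2 with FLuc siRNA at 8 h and 2 in place of 3 with FLuc siRNA at 12 h, and through EIF2AK4 3 in place of 4 with BOP1 siRNA at 8 h. Under IFN with BOP1 siRNA at 12 h it was 4 in place of 2 with the libraries numbered 1 and 2 alone, both with no replicate block and with the replicate block, through EIF2AK4 (−0.39, adjusted p = 0.047 and 0.0312) and EIF2S1 (−0.26, 0.0201 and 0.00551). For BOP1 siRNA with IFN at 8 h it was 1 in place of 0 after median-of-ratios rescaling, after quantile normalization and with the replicate block. For 12 h against 8 h in IFN cells it was 1 in place of 0 with either siRNA with the libraries numbered 1 and 2 alone. EIF2AK1 with FLuc siRNA at 12 h was also not called without the trend (adjusted p = 0.0588) or with only the groups compared (0.189), and it was called at 8 h with FLuc siRNA (0.0267) and at 12 h with BOP1 siRNA (0.0251) after quantile normalization. The replicate block changed the calls of EIF2AK1 (FLuc siRNA at 8 h, BOP1 siRNA at 12 h) and EIF2AK4 (BOP1 siRNA with IFN at 8 h) and no other call of the 9 genes. The cause was not tested.

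No called difference changed sign. Among differences that were not called, after median-of-ratios rescaling EIF2S1 was 0.15 and DHX9 0.14 under IFN with BOP1 siRNA at 8 h, DHX9 was 0.07 with FLuc siRNA at 8 h and 0.01 with BOP1 siRNA at 12 h, and EIF2S1 was −0.01 for BOP1 siRNA in mock at 8 h. The interaction of siRNA and IFN at 8 h was then 0.06 for EIF2AK2 and 0.01 for ADAR, and ADAR at 12 h against 8 h was −0.0042 in FLuc mock and −0.07 in FLuc IFN cells. After quantile normalization EIF2S1 under IFN with FLuc siRNA at 8 h was −0.02, the interaction of siRNA and IFN for EIF2AK2 at 12 h was −0.01, and that of time and IFN for ADAR with FLuc siRNA was 0.01. After rescaling without mitochondrial genes ADARB1 under IFN with FLuc siRNA at 8 h was −0.0003 (−0.0023 with the pseudocount of 0.1) and EIF2AK3 with BOP1 siRNA at 12 h −0.0048. For BOP1 siRNA in mock it gave 0.02 at 8 h and 0.01 at 12 h for EIF2AK1 and 0.0014 and 0.02 for ADAR. With the libraries numbered 1 and 2 alone, with the replicate block or without it, BOP1 siRNA gave 0.06 for EIF2AK1 in mock at 8 h, 0.04, 0.02, 0.03 and 0.02 for EIF2AK4, ADAR, PRKRA and DHX9 in mock at 12 h, −0.03 for ADARB1 with IFN at 8 h and 0.01 for PRKRA with IFN at 12 h. The interaction of siRNA and IFN for EIF2AK2 was then 0.02 at 8 h and −0.01 at 12 h. With no block, ADAR at 12 h against 8 h in FLuc IFN cells was −0.05.

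Without single libraries, the IFN difference with FLuc siRNA ran from −0.19 to 0.17 for ADARB1 and −0.07 to 0.02 for DHX9 at 8 h, and from −0.20 to 0.41 for EIF2AK3, −0.23 to 0.004 for PRKRA and −0.16 to 0.03 for DHX9 at 12 h. With BOP1 siRNA it ran from −0.11 to 0.04 for EIF2S1, −0.47 to 0.05 for ADARB1 and −0.08 to 0.04 for DHX9 at 8 h, and from −0.18 to 0.31 for EIF2AK3, −0.27 to 0.03 for EIF2S1 and −0.05 to 0.16 for ADARB1 at 12 h. The BOP1 siRNA difference in mock ran from −0.06 to 0.06 for EIF2AK1, −0.24 to 0.07 for EIF2AK3, −0.03 to 0.10 for EIF2S1 and −0.10 to 0.08 for ADAR at 8 h. In mock at 12 h it ran from −0.22 to 0.05 for EIF2AK2, −0.09 to 0.03 for EIF2AK1, −0.16 to 0.39 for EIF2AK3, −0.12 to 0.05 for EIF2AK4, −0.07 to 0.06 for ADAR and −0.15 to 0.09 for PRKRA. With IFN it ran from −0.03 to 0.12 for EIF2AK1, −0.16 to 0.0024 for ADAR and −0.03 to 0.33 for ADARB1 at 8 h, and from −0.15 to 0.02 for EIF2AK2, −0.07 to 0.10 for EIF2AK1, −0.33 to 0.30 for EIF2AK3, −0.26 to 0.05 for EIF2S1 and −0.06 to 0.39 for ADARB1 at 12 h. The interaction of siRNA and IFN ran from −0.08 to 0.07 for EIF2AK2 and −0.15 to 0.02 for ADAR at 8 h and from −0.12 to 0.16 for EIF2AK2 at 12 h. That of time and IFN for ADAR with FLuc siRNA ran from −0.13 to 0.02. For 12 h against 8 h, EIF2AK2 ran from −0.19 to 0.07 in FLuc mock and −0.13 to 0.05 in BOP1 mock cells, and ADAR from −0.04 to 0.09 in FLuc IFN cells.

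The count of all genes called under IFN, in the order FLuc siRNA 8 and 12 h and BOP1 siRNA 8 and 12 h, was 1741, 2166, 2426 and 2370, and 3370, 4326, 4653 and 4487 with the replicate block. With the libraries numbered 1 and 2 alone it was 3087, 4063, 4176 and 4474 with the block, and 3403 and 3831 at 12 h with no block. It was 951 for FLuc siRNA at 12 h with only the groups compared. Without the BOP1 siRNA IFN library numbered 2 it was 1596 at 8 h and 1541 at 12 h. For BOP1 siRNA in mock at 8 and 12 h and with IFN at 8 and 12 h it was 347, 257, 322 and 106, against 1364, 1231, 1415 and 606 with the block, 41, 10, 23 and 1 with only the groups compared, and 761, 493, 925 and 219 with the libraries numbered 1 and 2 and the block (589 with IFN at 8 h and no block). Without single libraries it ran from 138 to 255, 74 to 203, 123 to 200 and 32 to 128. For 12 h against 8 h (FLuc mock, FLuc IFN, BOP1 mock, BOP1 IFN) it was 21, 567, 37 and 475, against 1, 4, 2 and 12 with only the groups compared, and 263, 198 and 897 in FLuc mock, BOP1 mock and BOP1 IFN cells with the libraries numbered 1 and 2. With no filter it was 377 and 310 in IFN cells, and after median-of-ratios rescaling 32 in FLuc mock cells. After that rescaling 62.5, 50.5, 41.2 and 45.2% of these calls were higher at 12 h, in place of 90.5, 80.2, 59.5 and 82.7%. The interactions gave 11 genes or fewer in every setting run. Without a filter, 2, 2 and 3 of the 7 interferon genes were called under IFN in the FLuc siRNA 12 h and BOP1 siRNA 8 and 12 h comparisons, in place of 0. Apart from IFNE, these 7 genes were at 1.16 TPM or less in every library. Such calls rest on values near the floor and do not show that interferon genes respond. The count of called genes under IFN in the list for double-stranded RNA binding, 2 or 4, ran from 1 to 9 over the settings.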
